A study of Mus musculus with 5 samples.

Results

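The genes of the blood vessel lining were compared in mouse liver tumours with and without the long non-coding RNA lnc-CTHCC. The set held 34 genes of sinusoidal, central vein and tumour vessel endothelium, listed by symbol, and all 34 were found among the 22287 genes of the deposited expression table. The tumours were 3 lnc-CTHCC-/- samples (KO) and 2 wild type samples (WT), all from C57BL/6 mice. Both genotypes had received DEN, a liver carcinogen, with CCl4, a liver toxicant, over 5 months, so neither group holds untreated liver. The labels used here name no sex, age, number of tumours per library or animal of origin. The deleted RNA itself was not analysed here, so its loss was not checked.

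Endothelial cells of the liver are of several kinds. Sinusoidal cells line the capillaries between hepatocytes, are fenestrated, lack a firm basement membrane and clear macromolecules through scavenger receptors such as the stabilins and Lyve1. Cells of the central vein release Wnt ligands and R-spondin 3, which set the gene programme of the neighbouring hepatocytes, while sinusoidal BMP2 acts on hepcidin. In chronic injury and in hepatocellular tumours sinusoidal cells can lose these features and take on those of continuous capillaries, including CD34 and PLVAP, a process called capillarisation. VEGF acts through KDR and FLT1 and angiopoietins act through TEK, and sprouting tip cells are known for ANGPT2, apelin and ESM1.

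Expression was given as FPKM, fragments per kilobase of transcript scaled to the fragments of the library, so levels can be compared between genes per length. Genes with a mean of at least 1 FPKM over the 5 libraries were tested, which kept 10132 genes and 29 of the 34 members. Aplnr, Rspo3, Sox17, Wnt2 and Wnt9b were below that level. Differences subtract WT from KO as log2(FPKM + 1), by limma over all 10132 genes with Benjamini-Hochberg adjustment and a threshold of 0.05. Low values of short genes fell on steps of whole fragments, with 85.1% to 88.9% of them within 0.2 of a whole number, where 40% would be without a step. If that step is 1 fragment, the KO libraries held about 28200000 to 28500000 fragments, WT 1 about 23900000 and WT 2 about 27900000.

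Promoter sequence from RefSeq (GRCm38.p6, the assembly family of mm10) was matched by symbol for 17 of the 34 members. Shown here are the 250 bases before the start of Apln, which stood apart in 2 KO libraries, of Kdr, the main VEGF receptor, and of Clec4g and Cd34, which are known for sinusoidal and continuous capillary endothelium and ranked the libraries differently. All are written 5′ to 3′ on the gene's own strand, and capitals mark AGGAAG or its reverse complement, a core of sites for ETS factors such as ERG.
Apln (chrX:48034854-48035103, minus strand): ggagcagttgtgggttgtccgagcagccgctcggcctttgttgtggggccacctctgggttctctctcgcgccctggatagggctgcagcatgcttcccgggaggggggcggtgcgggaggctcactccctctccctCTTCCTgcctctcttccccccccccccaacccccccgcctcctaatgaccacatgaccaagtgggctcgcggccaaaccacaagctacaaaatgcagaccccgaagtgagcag
Kdr (chr5:75978456-75978705, minus strand): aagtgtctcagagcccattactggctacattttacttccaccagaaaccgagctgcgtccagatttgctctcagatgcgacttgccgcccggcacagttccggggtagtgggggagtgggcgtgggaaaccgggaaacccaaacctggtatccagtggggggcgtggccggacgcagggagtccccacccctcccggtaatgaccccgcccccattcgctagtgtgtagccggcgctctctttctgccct
Clec4g (chr8:3720652-3720901, minus strand): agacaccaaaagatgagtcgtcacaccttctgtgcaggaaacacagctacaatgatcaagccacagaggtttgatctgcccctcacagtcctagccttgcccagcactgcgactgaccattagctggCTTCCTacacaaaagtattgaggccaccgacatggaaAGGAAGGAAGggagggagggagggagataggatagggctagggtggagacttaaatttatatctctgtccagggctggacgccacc
Cd34 (chr1:194938571-194938820, plus strand): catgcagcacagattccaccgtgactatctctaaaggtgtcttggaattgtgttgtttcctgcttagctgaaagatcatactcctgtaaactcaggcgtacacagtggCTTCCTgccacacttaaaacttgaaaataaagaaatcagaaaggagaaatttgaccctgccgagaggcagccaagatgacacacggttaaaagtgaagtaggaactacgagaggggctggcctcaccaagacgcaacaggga
The letters AGGAAG, on either strand and with overlapping matches counted, were present in 10 of the 17 member promoters (58.8%) and in 29.2% of the 27025 gene promoters of the same length, taking the first start listed for each gene. AACAAT, a core of SOX sites, was present in 2 of the 17 (11.8%) and in 9.65% of all promoters. ACGTG or GCGTG, letters of the hypoxia response element, were present in 3 of the 17 (17.6%) and in 38.6% of all, Kdr among the members with 2 matches and Apln with 0. These are descriptions of the letters and not of bound sites.

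No member passed the test in either direction (limma adjusted p = 0.999 for each of the 29), where 0.00987% of all genes tested were called, 1 of 10132. At an unadjusted p under 0.05 there were 2 members, Angpt2 and Lyve1, both with higher values in KO, where 3.23% of all genes had such a p, 1.78% with a higher value in KO. In 5 of the 29 members tested (17.2%) every KO value exceeded both WT values, and in 0 all lay below, where 9.78% of all genes tested lay above without overlap and 5.29% below. The 5 were Angpt2, Lyve1, Esam, Egfl7 and Kdr. The mean was higher in KO in 22 of the 29 (75.9%), against 61.4% of all genes. With quantile normalization it was higher in 19 of the 29 and in 5368 of 10132 genes, and with median-ratio rescaling in 21 of the 29 and in 5123 of 10116 genes. With each library rescaled to the 7 pan-endothelial members, it was higher in 14 of the 29 and in 3561 of 10126 genes. That scaling was chosen after seeing the data, and the 7 members that fix it are among the 29. It moved the median log2 difference of all genes to -0.07. Without any rescaling the median log2 difference was 0.14 over these 29 and 0.05 over all genes tested. Without WT 2 the order turned, with 0.11 over the members and 0.16 over all genes, and without WT 1 the median was 0.13 over the members and -0.07 over all genes. Angpt2 had a WT mean below 1 FPKM and passed the expression filter through its KO values. The 29 are therefore not a neutral sample of the 34. With no filter the median was 0.09 over all 34, with 23 higher. Over all 16286 genes above 0 it was 0.02, with 9526 higher.

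**Figure D1:**
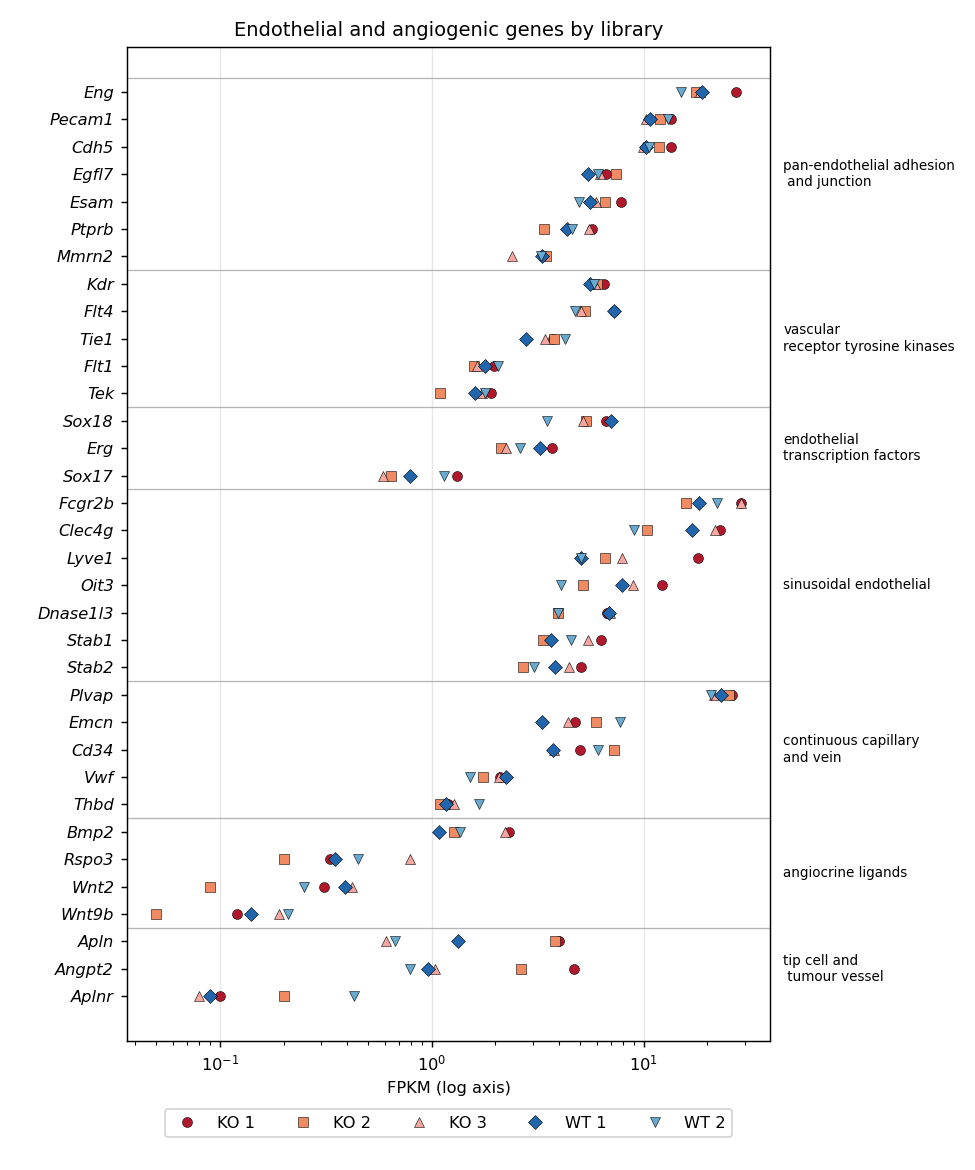
FPKM (log axis) of the 34 genes in each library, grouped by role, with KO in red shades and WT in blue shades. Plvap, Fcgr2b and Eng had the highest levels, the Wnt ligands and Aplnr the lowest, and the KO and WT points of most genes are interleaved.

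The KO 1 library held the highest value of 17 of the 29 members tested (58.6%), where it held the highest value of 31.1% of all genes, and it held the lowest value of none. KO 2 held the lowest value of 9 members (31.0%), where it held that of 11.8% of all genes. Without KO 1 the median log2 difference of the members was 0.05, against 0.02 over all genes. The members took 0.0498% of the FPKM sum in KO 1, 0.0346% in KO 2 and 0.0390% in KO 3, against 0.0342% in WT 1 and 0.0335% in WT 2. In bulk tumours, more endothelial cells and more RNA per endothelial cell cannot be told apart. Among markers of other cells tested, KO 1 was highest in 7 of 9 for stellate cells, 4 of 11 for Kupffer cells and macrophages and 1 of 6 for hepatocytes. Of the 9 stellate cell markers 7 were higher and 2 lower in KO by mean, with a median log2 difference of 0.29. In 2 of the 9 every KO value exceeded both WT values, where 9.78% of all genes did. Of the 6 hepatocyte markers 2 were higher and 4 lower in KO by mean, with a median log2 difference of -0.13. In 2 of the 6 every KO value lay below both WT values, where 5.29% of all genes did. The sum of the hepatocyte markers was 118651 to 121072 FPKM in KO, 137381 FPKM in WT 1 and 105850 FPKM in WT 2. The part of other cells in the KO 1 values was not tested.

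Among genes shared by all endothelium, the junction and adhesion genes Cdh5 and Pecam1 overlapped between the genotypes. Cdh5, VE-cadherin of the adherens junction, was at 13.52, 11.89 and 9.89 FPKM in KO and at 10.23 and 10.66 FPKM in WT. Pecam1, the adhesion molecule CD31, was at 13.44, 12 and 10.26 FPKM in KO and at 10.67 and 13.06 FPKM in WT, a log2 difference of 0.00 (SE 0.192). The ranges of Pecam1 overlapped, and the mean was 11.9 FPKM in each genotype. Both defining markers of endothelium were above 9 FPKM in every library.

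Esam, an endothelial adhesion molecule of tight junctions, was at 7.87, 6.59 and 5.94 FPKM in KO and at 5.61 and 4.94 FPKM in WT. Every KO value exceeded both WT values, a difference of 0.31 on the log2 scale (SE 0.193, limma adjusted p = 0.999). Egfl7, a secreted vessel matrix protein that hosts miR-126, was at 6.65, 7.43 and 6.25 FPKM in KO and at 5.46 and 6.10 FPKM in WT, also without overlap. Exons of Egfl7 overlap those of Agpat2 on the opposite strand over 64 bases and of Gm20532 on the same strand over 264 bases, so its reads are partly uncertain. Eng, endoglin, a co-receptor for TGF-beta family ligands, was at 27.22, 17.75 and 18.55 FPKM in KO and at 18.93 and 14.95 FPKM in WT. Only KO 1 stood above the WT range of Eng, which shares 61 exon bases with Fpgs on the opposite strand. Ptprb, the phosphatase VE-PTP, averaged 4.88 ± 1.30 FPKM in KO (SD, n = 3) and 4.49 ± 0.163 FPKM in WT (SD, n = 2). Mmrn2, multimerin 2 of the vessel matrix, averaged 3.07 ± 0.592 FPKM in KO (SD, n = 3) and 3.30 ± 0.0283 FPKM in WT (SD, n = 2). The summed FPKM of the 7 pan-endothelial genes was 77.8, 62.5 and 58.8 in KO and 58.6 and 57.6 in WT, so that KO 3 and WT 1 almost met.

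The tyrosine kinase receptors for VEGF and angiopoietins gave small differences in both directions. Kdr, the main VEGF receptor, was at 6.48, 6.03 and 5.88 FPKM in KO and at 5.58 and 5.86 FPKM in WT. The groups of Kdr did not overlap, by a gap of 0.02 FPKM, and the log2 difference was 0.08 (SE 0.176). Flt1, which binds VEGF and also limits it as a soluble form, was at 1.97, 1.58 and 1.63 FPKM in KO and at 1.78 and 2.05 FPKM in WT. Flt4, the receptor for VEGF-C, was at 7.25, 5.27 and 5.09 FPKM in KO and 7.29 and 4.73 FPKM in WT. Tek, the angiopoietin receptor TIE2, averaged 1.58 ± 0.431 FPKM in KO (SD, n = 3) and 1.70 ± 0.127 FPKM in WT (SD, n = 2). Tie1, its orphan partner, averaged 3.64 ± 0.195 FPKM in KO (SD, n = 3) and 3.54 ± 1.05 FPKM in WT (SD, n = 2). Of the 5 receptors, 2 were higher and 3 lower in KO by mean, with log2 differences between -0.10 and 0.08, while quantile normalization put 1 higher, rescaling to a common sum 3 and rescaling to the pan-endothelial members 0.

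The transcription factors of endothelial identity overlapped between genotypes. Sox18 was at 6.64, 5.38 and 5.17 FPKM in KO and at 7 and 3.50 FPKM in WT, so the WT libraries differed by a factor of 2 and enclosed all KO values. Erg, the ETS factor that maintains endothelial identity, averaged 2.68 ± 0.866 FPKM in KO (SD, n = 3) and 2.93 ± 0.438 FPKM in WT (SD, n = 2). Sox17, which is known for arterial endothelium, was below the expression filter at 0.847 ± 0.402 FPKM in KO (SD, n = 3) and 0.965 ± 0.247 FPKM in WT (SD, n = 2), and shares 804 exon bases with Gm37587 on the opposite strand.

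**Figure D2:**
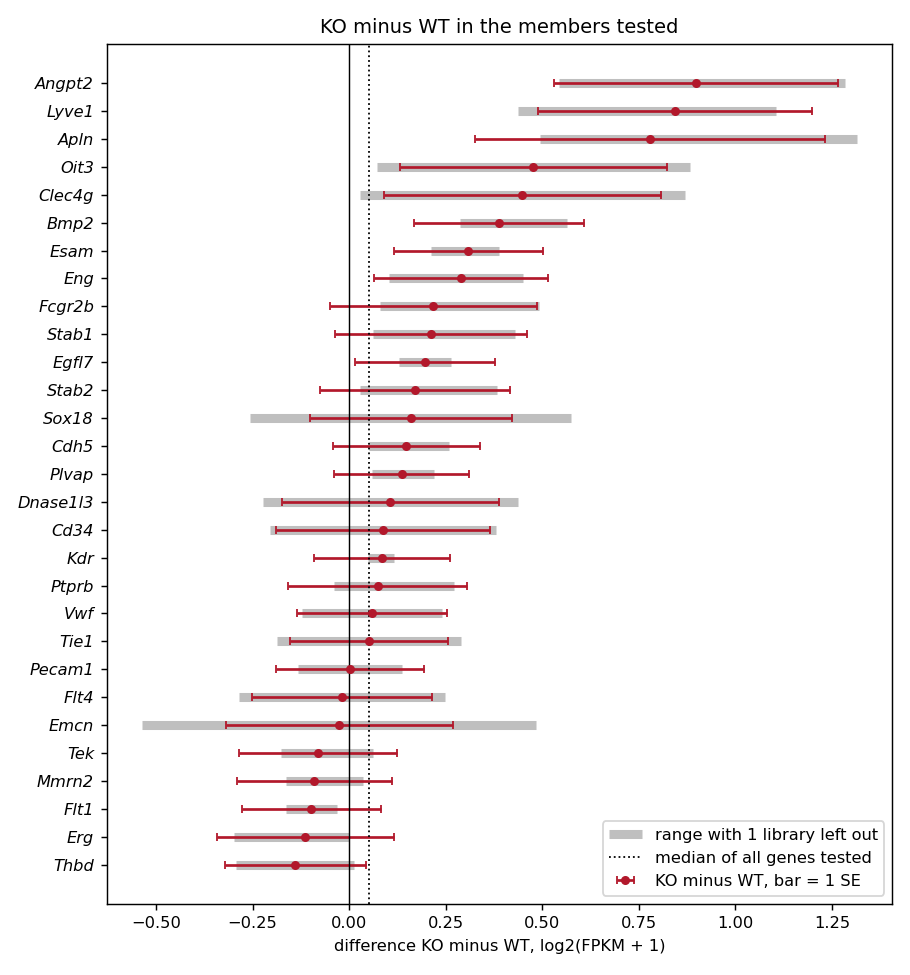
Mean log2(FPKM + 1) in KO less that in WT for the 29 members tested, ordered by size, with 1 SE, and in grey the range of the difference when each library is left out in turn. Angpt2, Lyve1 and Apln have the largest differences, and the dotted line is the median of all genes tested, 0.05.

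All 7 sinusoidal genes had a higher mean in KO, with log2 differences from 0.11 to 0.84 and a median of 0.22, but none passed the test; with rescaling to the pan-endothelial members 6 of the 7 were higher. The median was 0.08 without KO 1, 0.49 without KO 2, 0.14 without KO 3, 0.44 without WT 1 and 0.07 without WT 2, and Dnase1l3 was lower in KO without KO 3 (-0.014) and without WT 2 (-0.22). Without WT 2 the log2 difference was 0.028 for Clec4g and 0.071 for Oit3. Lyve1 (ENSMUSG00000030787, chromosome 7, 110850607 to 110863239, minus strand), the hyaluronan receptor of sinusoidal and lymphatic endothelium, was at 18.08, 6.58 and 7.92 FPKM in KO and at 5.06 and 5.08 FPKM in WT. The WT libraries were nearly equal, all KO libraries lay above them, and KO 1 was far above the other 2. The mean was 2.14 times that of WT, 0.84 higher on the log2 scale (SE 0.354, limma unadjusted p = 0.0421, adjusted p = 0.999). Without KO 1 the log2 difference was 0.44. With 1 annotated transcript of 2893 bases, the values stand for about 1490, 541 and 647 fragments in KO and 350 and 411 in WT.

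Oit3, a secreted zona pellucida domain protein, was at 12.24, 5.20 and 8.95 FPKM in KO and at 7.90 and 4.07 FPKM in WT. Clec4g, the lectin LSECtin, was at 22.96, 10.37 and 21.68 FPKM in KO and at 17.00 and 9.05 FPKM in WT. In both genes KO 2 and WT 2 were low and the other 3 libraries were high, so the groups overlapped. Clec4g overlaps 146 exon bases of the antisense gene Gm16553. Stab2, a scavenger receptor for hyaluronan, was at 5.06, 2.70 and 4.46 FPKM in KO and at 3.80 and 3.05 FPKM in WT. Dnase1l3, a secreted DNase, was at 6.70, 3.95 and 6.94 FPKM in KO and at 6.84 and 3.96 FPKM in WT. KO 2 and WT 2 were again the lowest libraries of Stab2 and Dnase1l3. Stab2 shares 141 exon bases with the antisense gene Gm16268.

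Stab1 and Fcgr2b, which macrophages also express, ordered the WT libraries the other way. Stab1, the second stabilin, was at 6.27, 3.36 and 5.48 FPKM in KO and at 3.67 and 4.56 FPKM in WT. Fcgr2b, the inhibitory Fc receptor that takes up immune complexes, was at 28.69, 15.82 and 28.84 FPKM in KO and at 18.31 and 22.19 FPKM in WT. KO 2 was the lowest library of both. On the opposite strand, Stab1 shares 112 exon bases with Nt5dc2 and Fcgr2b shares 155 with Gm38204. Of 12 Kupffer cell and macrophage markers 11 were tested, 8 higher and 3 lower in KO by mean, and KO 2 was the lowest library in 9 of them. The sum of the 12 ranged from 160.6 to 313.4 FPKM in KO and from 208.8 to 266.9 FPKM in WT, and none was at 0. Their part in the sinusoidal values was not tested. Of 6 B cell markers, which also cover cells with Fcgr2b, 1 passed the filter, and the sum was 6.41 to 8.82 FPKM in KO and 3.46 to 7.64 FPKM in WT with none at 0.

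Of the 5 genes of continuous capillaries and veins, Cd34 and Emcn ranked the libraries in another order than the sinusoidal genes Clec4g and Stab2, and the other 3 did not share that order. Cd34, which is known for capillarised tumour endothelium, was at 4.99, 7.24 and 3.76 FPKM in KO and at 3.74 and 6.11 FPKM in WT. Emcn, endomucin, a sialomucin, was at 4.77, 5.98 and 4.41 FPKM in KO and at 3.30 and 7.72 FPKM in WT. KO 2 and WT 2, the libraries lowest in Clec4g and Stab2, were the highest of their genotypes in Cd34 and Emcn. The ratio of Clec4g to Cd34 FPKM was 4.60, 1.43 and 5.77 in KO and 4.55 and 1.48 in WT. Cd34 shares 148 exon bases with the antisense gene Gm16897.

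Plvap, the diaphragm protein of capillary fenestrae, was the most abundant member with a mean of 23.4 FPKM over the libraries, above 82.4% of the genes tested. It was at 26.20, 25.28 and 21.45 FPKM in KO and at 23.22 and 20.76 FPKM in WT, with a log2 difference of 0.14 (SE 0.174). Thbd, thrombomodulin, was at 1.19, 1.10 and 1.28 FPKM in KO and at 1.17 and 1.68 FPKM in WT, and its log2 difference of -0.14 was the lowest of the members tested. Vwf, von Willebrand factor, averaged 1.98 ± 0.208 FPKM in KO (SD, n = 3) and 1.88 ± 0.509 FPKM in WT (SD, n = 2), and like Clec4g it was lowest within each genotype in KO 2 and WT 2. Of 7 platelet and megakaryocyte markers, which cover platelets that carry Vwf, 1 passed the filter. Their sum was 1.83 to 4.09 FPKM in KO and 1.54 to 2.63 FPKM in WT, with Treml1 at 0 in KO 2 and WT 2 and Gp9 at 0 in WT 2.

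Summed over genes, the 7 sinusoidal members reached 100, 48.0 and 84.3 FPKM in KO and 62.6 and 52.0 FPKM in WT. The 5 capillary and vein members reached 39.3, 41.3 and 33.0 FPKM in KO and 33.7 and 37.8 FPKM in WT. The ratio of these sums was 2.55, 1.16 and 2.55 in KO and 1.86 and 1.37 in WT. The mean ratio was 2.09 ± 0.803 in KO (SD, n = 3) and 1.62 ± 0.342 in WT (SD, n = 2), and the groups overlapped.

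**Figure D3:**
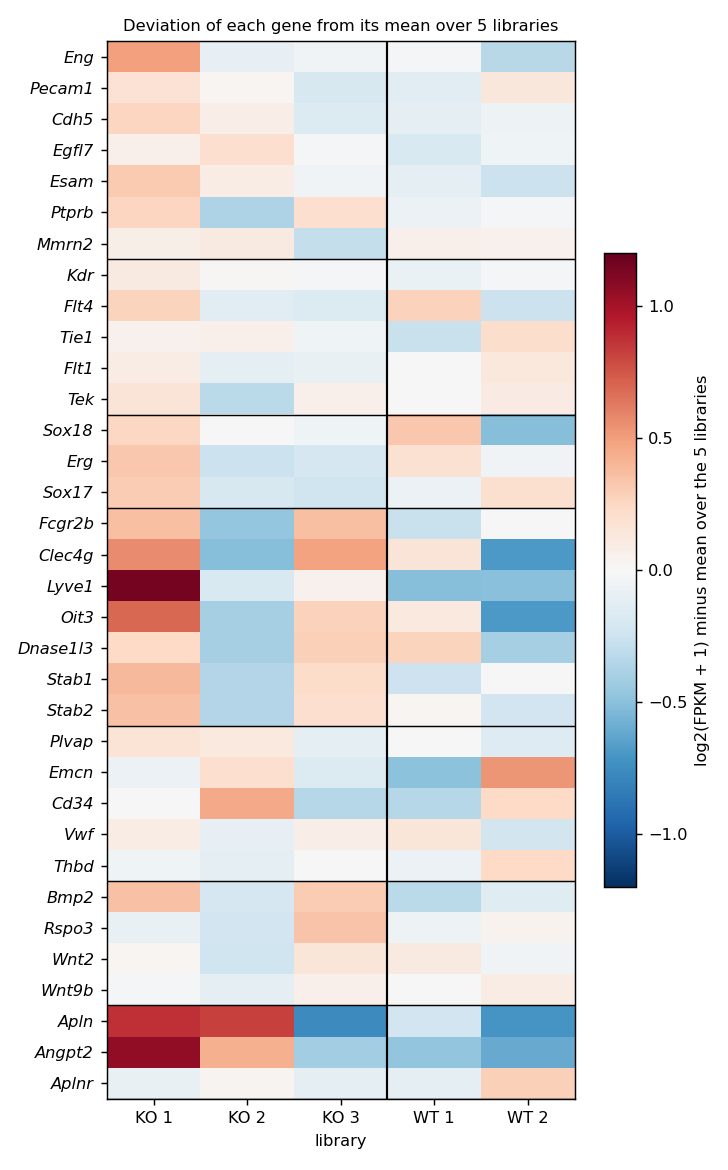
Each gene's log2(FPKM + 1) minus its mean over the 5 libraries, in rows by role and columns by library, KO left of WT. Sinusoidal genes are low in KO 2 and mostly low in WT 2, Cd34 and Emcn are high there, and Apln and Angpt2 are high in KO 1 and KO 2.

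The angiocrine ligands were scarce. Bmp2, the sinusoidal ligand that acts on hepatocyte hepcidin, was at 2.33, 1.27 and 2.22 FPKM in KO and at 1.08 and 1.36 FPKM in WT. KO 2 lay within the WT range and KO 1 and KO 3 above it, and the genotypes differed by 0.39 on the log2 scale (SE 0.220, limma adjusted p = 0.999). Wnt2, a pericentral Wnt ligand, was at 0.31, 0.09 and 0.42 FPKM in KO and at 0.39 and 0.25 FPKM in WT, or about 6 to 27 fragments a library. Wnt9b, the other pericentral Wnt, averaged 0.120 ± 0.0700 FPKM in KO (SD, n = 3) and 0.175 ± 0.0495 FPKM in WT (SD, n = 2). Rspo3, which amplifies Wnt signals, was at 0.33, 0.20 and 0.79 FPKM in KO and at 0.35 and 0.45 FPKM in WT, and shares 404 exon bases with the antisense gene Gm48159. These 3 ligands had 6 to 69 fragments a library and varied severalfold within KO, so these libraries give no firm comparison of them.

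Targets of these ligands in hepatocytes were compared beside them. Of 17 Wnt and R-spondin targets 10 were tested, 7 higher and 3 lower in KO by mean and none called, where 61.4% of all genes tested were higher. Notum and Znrf3, among the 10, had a WT mean below 1 FPKM, so they passed the filter through their KO values and had to be higher there. Glul, glutamine synthetase of pericentral hepatocytes, was at 27.09, 17.28 and 27.04 FPKM in KO and at 17.32 and 35.63 FPKM in WT. Axin2 was at 0.12 to 0.23 FPKM and Lgr5 at 0.03 to 0.16 FPKM in the 5 libraries. Of 15 BMP and TGF-beta genes 14 were tested, 10 higher and 4 lower in KO by mean and none called, and KO 1 was the highest library in 11 of them. Bmp6, another ligand for hepcidin, was at 2.32, 1.21 and 1.37 FPKM in KO and at 0.87 and 0.98 FPKM in WT. Bmp6 and Smad7 too passed the filter through their KO values. Hamp, hepcidin itself, was at 140.9, 60.2 and 123.9 FPKM in KO and at 39.2 and 134.1 FPKM in WT, so the WT libraries spanned most of the KO range. Id1, a direct BMP target, was at 23.89, 11.84 and 15.87 FPKM in KO and at 18.38 and 9.86 FPKM in WT. Id3, another, had a log2 difference of 0.50 (SE 0.254), which was 0.81 without WT 1 and 0.18 without WT 2, and Acvrl1, the receptor ALK1, of -0.27 (SE 0.199).

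Angpt2 and Apln, genes of sprouting vessels, had the first and the third largest log2 difference among the members tested, with the sinusoidal gene Lyve1 between them. Angpt2 (ENSMUSG00000031465, chromosome 8, 18690263 to 18741562, minus strand), the angiopoietin of remodelling vessels that antagonises TIE2, was at 4.70, 2.65 and 1.04 FPKM in KO and at 0.96 and 0.79 FPKM in WT. KO 3 lay just above WT 1, and KO 1 and KO 2 well above both WT libraries. The KO mean was 3.20 times the WT mean, 0.90 higher on the log2 scale (SE 0.368, limma unadjusted p = 0.0383, adjusted p = 0.999). Its WT mean was below 1 FPKM, so Angpt2 entered the test through its KO values and had to be higher there. The log2 difference was 0.54 without KO 1. These values stand for about 477, 268 and 105 fragments in KO and 82 and 79 in WT. Angpt2 lies within Mcph1, a gene of the opposite strand with which it shares no exon bases. Relative to Tek, its receptor, Angpt2 was at a ratio of 2.46, 2.43 and 0.601 in KO and of 0.596 and 0.441 in WT.

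Apln (ENSMUSG00000037010, chromosome X, 48025146 to 48034853, minus strand), the peptide apelin of tip cells, was at 4.01, 3.80 and 0.61 FPKM in KO and at 1.33 and 0.67 FPKM in WT. KO 1 and KO 2 were high and KO 3 was the lowest of the 5 libraries, so the groups overlapped (log2 difference 0.78, SE 0.452, limma adjusted p = 0.999). Without KO 1 the difference was 0.49, without KO 2 it was 0.53, and without WT 2 it was 0.54. Aplnr, the apelin receptor, was at 0.10, 0.20 and 0.08 FPKM in KO and at 0.09 and 0.43 FPKM in WT, about 8 to 44 fragments a library. The sum of the 3 tip cell and tumour vessel members was 8.81, 6.65 and 1.73 FPKM in KO and 2.38 and 1.89 FPKM in WT. Mesothelial markers were high in the same KO libraries: the sum of the 5 was 7.39, 7.19 and 2.48 FPKM in KO and 2.63 and 3.96 FPKM in WT, with none at 0 and 2 of 5 tested. Their part in the Apln and Angpt2 values was not tested.

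**Figure D4:**
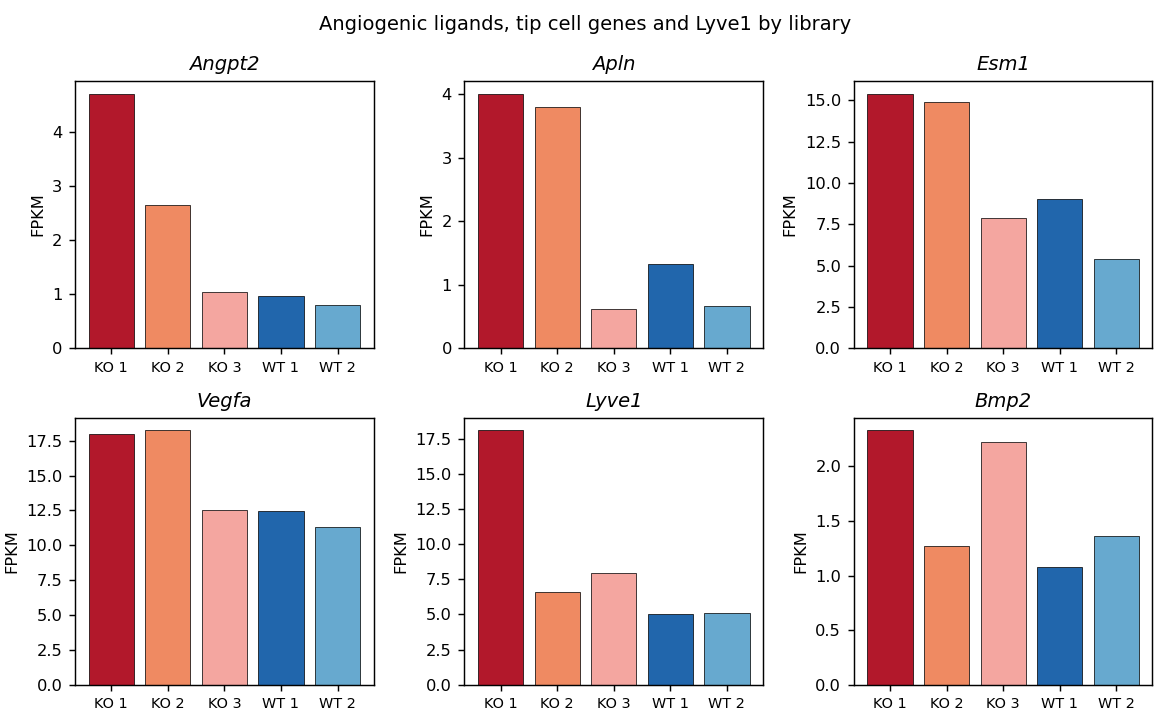
FPKM of Angpt2, Apln, Esm1, Vegfa, Lyve1 and Bmp2 in each library, KO left of WT, 1 bar per library. Angpt2, Apln and Esm1 are highest in KO 1 and KO 2, while Lyve1 is highest in KO 1.

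Ligands and co-receptors outside the set were compared to place these values. Of 14 VEGF and angiopoietin genes 9 were tested, 3 higher and 6 lower in KO by mean and none called, a median log2 difference of -0.04. Vegfa, the main ligand of Kdr, was at 18.02, 18.24 and 12.52 FPKM in KO and at 12.43 and 11.35 FPKM in WT, without overlap (log2 difference 0.40, SE 0.208, limma adjusted p = 0.999). KO 3 was close to WT 1 in Vegfa, as in Angpt2. Adm, the vasoactive peptide adrenomedullin, was at 1.97, 1.42 and 1.37 FPKM in KO and at 0.69 and 0.87 FPKM in WT (log2 difference 0.53, SE 0.188, limma adjusted p = 0.999). Its WT mean was below 1 FPKM, so it entered the test through its KO values and had to be higher there. Angpt1, the TIE2 agonist, was below the filter at 0.68, 0.32 and 0.29 FPKM in KO and at 0.17 and 0.28 FPKM in WT. Pdgfb, which recruits pericytes, had a log2 difference of -0.17 (SE 0.251), which was 0.13 without WT 1 and -0.47 without WT 2.

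Of 12 Notch genes 7 were tested, and none was called. All 7 had a higher mean in KO, where 61.4% of all genes tested did, but with no filter 9 of the 12 were higher and 3 lower (Dll1, Hey1 and Jag2). Without KO 1, 4 of 6 tested were higher, without KO 2 it was 6 of 7, and without either WT library 5 of 7. Dll4, the Notch ligand of tip cells, was at 2.16, 1.88 and 1.23 FPKM in KO and at 1.60 and 1.11 FPKM in WT, with overlap. Jag1, another Notch ligand, was at 1.80, 1.25 and 1.01 FPKM in KO and at 0.63 and 0.86 FPKM in WT, a WT mean below 1 FPKM, so that it passed the filter through its KO values. KO 1 was the highest library in 6 of the 7. Of 24 capillarisation and tumour vessel genes 19 were tested, 12 higher and 7 lower in KO by mean and none called. Esm1, endocan, a tip cell proteoglycan, was at 15.40, 14.91 and 7.88 FPKM in KO and at 9.05 and 5.41 FPKM in WT (log2 difference 0.72, SE 0.309, limma adjusted p = 0.999). Without WT 2 its difference was 0.40. Like Apln, Esm1 was highest in KO 1 and KO 2. The KO 3 value of Esm1 lay inside the WT range, while that of Apln lay below both WT values. Kcne3, a potassium channel subunit, had a log2 difference of 0.41 (SE 0.209) and Aqp1, a water channel, of 0.26 (SE 0.174), both without overlap.

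Further endothelial and sinusoidal genes were compared in the same way. Of 30 other endothelial genes 24 were tested, 16 higher and 8 lower in KO by mean and none called, with a median log2 difference of 0.04, close to the 0.05 of all genes; with median-ratio rescaling or quantile normalization 11 were higher and 13 lower. Robo4, a vessel guidance receptor, had a log2 difference of 0.37 (SE 0.214; 0.22 without WT 2) and Tmem204 of 0.32 (SE 0.191). Of 18 other sinusoidal genes found, 14 were tested, 9 higher and 5 lower in KO by mean and none called, and KO 2 was the lowest library in 9 of the 14. Gata4, the transcription factor that specifies sinusoidal endothelium, was at 5.41, 4.96 and 4.30 FPKM in KO and at 3.85 and 2.82 FPKM in WT, without overlap (log2 difference 0.45, SE 0.2, limma adjusted p = 0.999; 0.28 without WT 2). Gata4 is also known in stellate cells, whose 10 markers summed to 124.2, 85.2 and 112.6 FPKM in KO and 85.9 and 84.1 FPKM in WT, with none at 0 and 7 of 9 tested higher in KO. The part of stellate cells in the Gata4 value was not tested. Over these 7 lists together, 97 genes were tested, 64 (66.0%) higher and 33 lower in KO by mean, where 61.4% of all genes tested were higher. None of the 97 was called. A limma unadjusted p under 0.05 was found for 2 of the 97, Adm and Esm1, where 3.23% of all genes tested had such a p. Without overlap, 13 of the 97 (13.4%) lay higher in KO and 1 lower, against 9.78% and 5.29% of all genes tested. The 1 that lay lower was among the other sinusoidal genes. Of the 97, 6 had a WT mean below 1 FPKM and a KO mean above it (Adm, Bmp6, Jag1, Notum, Smad7 and Znrf3) and 0 the reverse. These 6 therefore had to be higher in KO. The split of most lists also moved with 1 library: the VEGF and angiopoietin genes were 7 higher and 2 lower without WT 2, the Wnt targets 4 higher and 6 lower without WT 1, and the capillarisation genes 17 higher and 2 lower without WT 2.

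**Figure D5:**
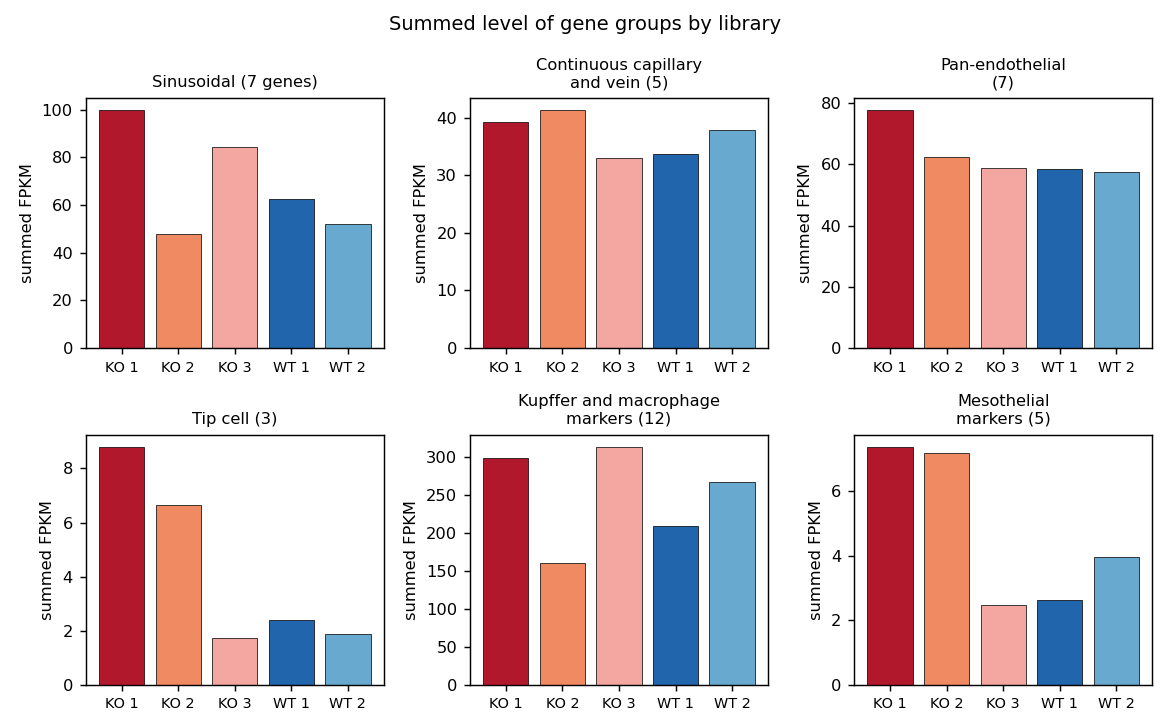
Summed FPKM of 4 groups of members and of Kupffer and mesothelial marker lists in each library, KO left of WT. The sinusoidal and the Kupffer sums are both lowest in KO 2, and the tip cell sum and the mesothelial sum are both high in KO 1 and KO 2.

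In the authors' deposited table none of the 34 members has a false discovery rate under 0.05, where 0.162% of all its genes have one. The smallest rate of a member in the authors' deposited table is 0.394, for Angpt2, with a log2 fold change of 1.68. Lyve1 follows in the authors' deposited table with a log2 fold change of 1.10 and a rate of 0.760. These values come from the same 5 libraries and add no separate evidence.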

How the data were processed

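One table held RNA sequencing of 3 KO and 2 WT liver tumour libraries. Per the labels' protocols, RNA came from Trizol extraction and standard Illumina preparation. Tools named in the submitters' processing notes are HISAT2, StringTie, limma, DESeq2 and bcl2fastq 2.0, and the build is mm10; no roles are stated, and the sources used here give neither annotation nor strand setting. Per the file headers the deposited values are FPKM, and they carry 2 decimals. The authors' deposited table also holds their mean FPKM, log2 fold change, p-value and false discovery rate. Depth was estimated from the step of low FPKM values in genes with 1 GENCODE vM21 transcript under 1.2 kb.

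FPKM was transformed to log2(FPKM + 1) and tested by limma 3.58.1 in R 4.3.3 with a mean-variance trend and no covariate (2 groups, 3 residual degrees of freedom, two-sided p), adjusted over 10132 genes with a mean of at least 1 FPKM; the steps were tested on simulated data. With 3 against 2 libraries an exact permutation p stays at 0.1 or above, so none was computed. Since no label names separate animals, p-values may reflect technical spread only. Members and lists were chosen with earlier results of these data known. All 34 members are named, with values per library for the 14 with the smallest unadjusted p, for 12 fixed genes and for further ones chosen after their values were seen. From each list of other genes, up to 3 by smallest p and 8 fixed genes were eligible. Alternatives changed the pseudocount, the filter, the scaling, the empirical Bayes step, the replicate block and the libraries included. Coordinates are GENCODE vM21 (GRCm38), 1-based. Figures used matplotlib 3.10.9.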

Additional observations from a re-analysis of the deposited data

How the results depend on the processing

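The number of genes called, 1 of 10132, was 0 with quantile normalization, with median-ratio rescaling, with libraries set to a common sum, with a pseudocount of 5, without the filter or with one at 5 FPKM, and 3 with robust empirical Bayes. It was between 0 and 17 with 1 library left out: 0 without any 1 of the KO libraries, 17 without WT 1 and 1 without WT 2. With the replicate number as a block it was 62, and 2 members passed, Angpt2 (log2 difference 1.28, limma adjusted p = 0.0310) and Apln (1.31, adjusted p = 0.0232). KO 3 has a block to itself there and drops out of the estimate, which leaves 1 residual degree of freedom. The labels used here give these libraries a shared number and state no pairing. Over 10132 genes, deviations from the genotype mean correlated at 0.0884 for KO 1 with WT 1, at -0.241 for KO 2 with WT 2 and at 0.319 for KO 3 with WT 2. With 2 WT libraries, each KO library correlates with both at equal size and opposite sign. These correlations therefore cannot tell whether libraries of the same number belong together. Without KO 3 and without a block neither Angpt2 nor Apln passed, with a limma adjusted p of 0.711 for Apln. In the other alternatives no member passed, and no gene of the 7 lists of further endothelial and pathway genes passed in any. The markers of other cells were not counted there.

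Scaling each library to the mean of the 7 pan-endothelial members, chosen after seeing the data, gave 4 genes called and moved the median of the members tested to -0.0030, because those members fix the scale. It turned the direction of Pecam1 (-0.13), Kdr (-0.039), Tie1 (-0.061), Vwf (-0.036), Dnase1l3 (-0.016), Plvap (-0.0030), Cd34 (-0.032) and Ptprb (-0.046), while Lyve1 stood at 0.71, Angpt2 at 0.80 and Apln at 0.68. Direction also turned for Pecam1 with median-ratio rescaling (-0.053), for Pecam1 (-0.023), Tie1 (-0.014) and Vwf (-0.017) with quantile normalization, for Flt4 (0.0044) with rescaling to a common sum, and with the replicate block for Flt4 (0.061), Dnase1l3 (-0.014), Emcn (0.052), Ptprb (-0.013) and Mmrn2 (0.036). The cause was not tested. Of 29 members, 15 turned in at least 1 alternative. With 1 library left out, the log2 difference ranged from -0.13 to 0.14 for Pecam1, -0.28 to 0.25 for Flt4, -0.18 to 0.063 for Tek, -0.19 to 0.29 for Tie1, -0.12 to 0.24 for Vwf, -0.29 to 0.012 for Thbd, -0.22 to 0.44 for Dnase1l3, -0.20 to 0.38 for Cd34, -0.54 to 0.48 for Emcn, -0.30 to 0.00018 for Erg, -0.16 to 0.036 for Mmrn2, -0.038 to 0.27 for Ptprb and -0.26 to 0.57 for Sox18. Where WT 1 or WT 2 was left out, the lone WT library is assumed to vary like the KO libraries. Lyve1, Angpt2 and Apln were higher in KO in all alternatives that tested them, at 0.44 to 1.10, 0.38 to 1.35 and 0.35 to 1.31. So were Cdh5, Esam, Eng, Egfl7, Stab1, Stab2, Clec4g, Fcgr2b, Oit3 and Bmp2, while Flt1 was lower in all that tested it. Angpt2 passed the 1 FPKM filter through its KO values, so its direction was fixed in advance wherever that filter was used. The alternatives reuse the same 5 libraries, so a kept direction is no separate evidence. Low fragment numbers, as for the Wnt ligands and Aplnr, limit any comparison.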
